A study of Homo sapiens with 6 samples.

Results

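The genes described here encode 36 enzymes that make, salvage or supply nucleotides, chosen by symbol from the 25445 rows of the count table. All 36 passed the filter on low counts and were among the 15957 rows tested. RNA-seq was done on MHCC-97H, a human liver cancer line grown in culture, after 16 h in 10 μM 6j, a code-named compound derived from sophoridine (an alkaloid found in plants), or in its solvent. Both groups, 6j treated and non-treated, had 3 libraries, all from 1 cell line at 1 dose and 1 time. Total counts ranged from 31533403 to 38018349 per library. The labels do not say whether the libraries came from separate cultures, so a p-value measures only the spread between these libraries, which may be technical.

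The labelled cell type was checked against markers of the hepatocyte lineage. TTR, FOXA2 and EPCAM had 0 counts in every library, which allows up to 3 counts each, and ALB, AFP, APOA1 and SERPINA1 had 0 counts in every non-treated library. Of the 13 markers, 3 passed the filter, and these were HNF4A at 0.969 ± 0.369 CPM (CPM is the count scaled to a fixed library size, SD, n = 3) in non-treated cells and the keratins KRT8 at 605 ± 77.2 and KRT18 at 430 ± 36.3 CPM. Mature hepatocyte markers were therefore absent or nearly so from these libraries. Of 8 markers of other cell types, PTPRC and CD3E had 0 counts in every library and PECAM1 and VWF were under 1 CPM on average, while COL1A1 was at 244 ± 30.3, CD68 at 51.3 ± 16.7, COL3A1 at 44.3 ± 5.55 and ACTA2 at 7.10 ± 1.66 CPM in non-treated cells (SD, n = 3). The summed level of the 8 was 312 to 373 CPM in non-treated and 294 to 359 CPM in 6j treated cells.

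Purine rings are built stepwise on phosphoribosyl pyrophosphate (PRPP) until IMP is formed, which is then turned into AMP or GMP. The pyrimidine ring is closed first and joined to PRPP afterwards, giving UMP, from which CTP is made. Cells also salvage free bases and nucleosides, kinases add phosphates to the products, and ribonucleotide reductase makes the deoxynucleotides used for DNA, so that this network is known for following the demand of dividing cells. The enzymes were grouped by these roles.

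In 6j treated cells 1 of the 36 genes was called higher and 3 were called lower, while the values of most others were slightly below those of non-treated cells. A gene was called at a Benjamini-Hochberg adjusted p under 0.05 in edgeR's quasi-likelihood test together with a fold change above 1.5. UPP1, which splits uridine into uracil and ribose phosphate, rose 2.54-fold. PFAS of the purine ring pathway, the adenine salvage enzyme APRT and the nucleoside diphosphate kinase NME1 fell to 0.629, 0.622 and 0.624 of their non-treated levels. Over all rows tested, 396 (2.48%) were called higher and 178 (1.12%) were called lower.

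Without the limit on fold change, 1 of the 36 rose and 7 fell, against 4.79% and 4.37% of all rows. DESeq2 put 1 higher and 12 lower at any fold, against 8.25% and 8.04% of the 14361 rows it gave an adjusted p. At an unadjusted p under 0.05, edgeR put 2 higher and 18 lower, against 13.1% and 13.0% of all rows. By edgeR, the additional 4 that fell were ADSL, DTYMK, RRM2 and TYMS. A fold change below 0 on the log2 scale was seen for 32 of the 36, against 49.3% of all rows, and the median log2 fold change was −0.23, against 0.00 over all rows. In 21 of the 36 every 6j treated library lay below every non-treated library, and in 3 (UPP1, ADSS and UCK1) every one lay above. The same separation was seen in 15.8% and 16.0% of all rows. The summed level of the 36 was 5356 to 5689 CPM in non-treated cells and 4597 to 4856 CPM in 6j treated cells. In bulk libraries of this kind, fewer cells in a state and less RNA per cell cannot be told apart.

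Libraries of the same replicate number deviated together, so a fit with the replicate number as a block was also made. With the block 2 genes rose (UPP1 and ADSS) and 18 fell, against 13.1% and 13.9% of all rows. Within each of the 3 pairs of equal number, the 6j treated library was lower for 29 of the 36 genes and higher for 4. Over all rows, 28.7% were lower and 28.4% were higher in each pair.

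The counts depended on single libraries. Without non-treated replicate 1, or without 6j treated replicate 2, edgeR called 0 of the 36 lower, with 14 and 13 lower at an unadjusted p under 0.05, against 9.01% and 9.28% of all rows in those fits. DESeq2 on all 6 libraries called 3 lower. Without non-treated replicate 3, or without 6j treated replicate 3, 1 was called lower. UPP1 was called in each of these fits.

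**Figure D1:**
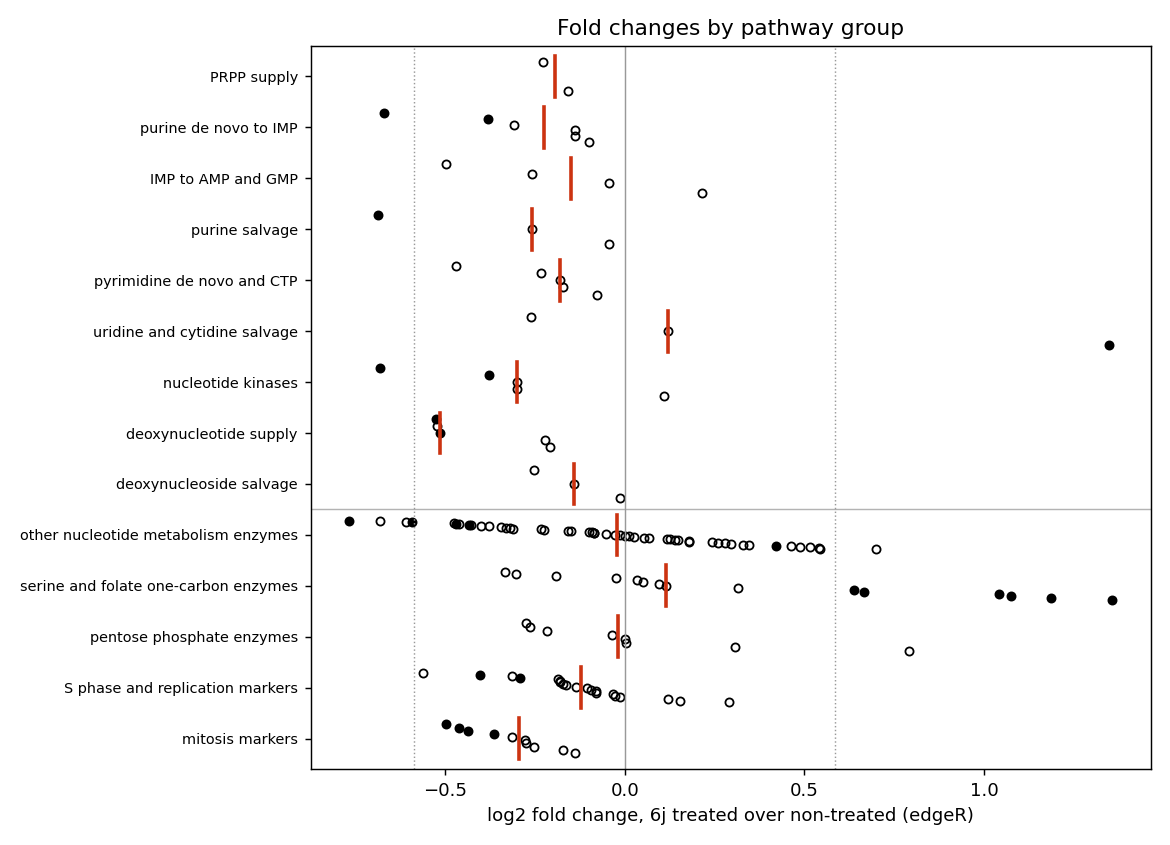
The log2 fold change of 6j treated over non-treated cells is plotted for each of the 36 genes by pathway group and for the comparison lists, with filled points for an adjusted p under 0.05 and open points for the others, red bars for medians and dotted lines at a 1.5-fold change. Most points of the nucleotide groups lie just below 0, and UPP1 stands above all of them at 1.35. Among the 36 genes, PFAS, APRT and NME1 are the filled points beyond the lower line. ADA and DPYD of the comparison lists are also filled beyond it.

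Promoter windows are shown for the 4 genes called, UPP1, PFAS, APRT and NME1, and for PPAT, whose start region is shared with PAICS. The windows span 250 bases before to 50 after a transcript start in RefSeq (GRCh38.p14), and 34 of the 36 genes had at least 1 (53 windows). The window of UPP1 at chr7:48089004-48089303 (plus strand), that of PFAS at chr17:8249039-8249338 (plus strand) and that of APRT at chr16:88811879-88812178 (minus strand) held no match to the motifs searched. That of NME1 at chr17:51153309-51153608 (plus strand) held an E-box 34 bases after the start and a CCAAT box 203 bases before it. The window of PPAT at chr4:56435566-56435865 (minus strand) held an E-box 182 bases before the start. Capitals mark the matches.
UPP1: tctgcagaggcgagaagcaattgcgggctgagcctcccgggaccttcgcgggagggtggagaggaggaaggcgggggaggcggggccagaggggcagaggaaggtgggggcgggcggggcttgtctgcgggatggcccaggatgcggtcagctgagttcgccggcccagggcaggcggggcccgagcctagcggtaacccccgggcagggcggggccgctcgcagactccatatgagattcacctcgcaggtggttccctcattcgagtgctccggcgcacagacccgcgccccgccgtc
PFAS: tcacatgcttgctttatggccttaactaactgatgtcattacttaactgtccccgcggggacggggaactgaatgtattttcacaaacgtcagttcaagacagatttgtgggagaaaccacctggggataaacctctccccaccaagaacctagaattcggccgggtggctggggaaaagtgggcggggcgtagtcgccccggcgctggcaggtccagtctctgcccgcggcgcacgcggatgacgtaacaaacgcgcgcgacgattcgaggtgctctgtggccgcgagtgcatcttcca
APRT: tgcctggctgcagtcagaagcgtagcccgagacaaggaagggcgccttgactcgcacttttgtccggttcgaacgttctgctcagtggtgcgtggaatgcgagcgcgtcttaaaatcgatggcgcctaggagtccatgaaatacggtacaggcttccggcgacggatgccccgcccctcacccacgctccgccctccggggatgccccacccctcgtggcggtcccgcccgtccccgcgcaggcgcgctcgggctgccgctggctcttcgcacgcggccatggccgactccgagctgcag
NME1: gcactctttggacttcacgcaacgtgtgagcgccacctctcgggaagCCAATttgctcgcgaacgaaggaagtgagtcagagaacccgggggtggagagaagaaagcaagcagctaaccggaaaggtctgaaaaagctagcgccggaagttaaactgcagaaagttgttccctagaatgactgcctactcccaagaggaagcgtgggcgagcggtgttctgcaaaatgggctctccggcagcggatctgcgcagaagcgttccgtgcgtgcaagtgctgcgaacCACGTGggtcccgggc
PPAT: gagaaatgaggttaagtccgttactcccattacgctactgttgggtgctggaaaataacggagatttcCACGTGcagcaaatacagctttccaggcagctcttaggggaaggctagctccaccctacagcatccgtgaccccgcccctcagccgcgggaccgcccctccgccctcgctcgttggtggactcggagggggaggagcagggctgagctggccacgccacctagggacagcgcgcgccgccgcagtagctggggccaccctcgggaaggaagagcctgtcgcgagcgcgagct

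Motifs were searched on both strands. The E-box CACGTG, which MYC and related factors can bind, was found in the windows of 6 of 34 genes (17.6%: ATIC, DCK, DHODH, NME1, PAICS and PPAT), against 8.77% of the 27305 genes in the RefSeq set. PPAT and PAICS, which face away from each other with 125 bases between their annotated starts, share 1 of these E-boxes in windows that overlap by 236 bases. The E2F motif TTTNGCGC was found in 3 genes (8.82%: DCK, DUT and GART), against 2.17%. The CCAAT box (CCAAT) was found in 12 genes (35.3%), against 39.7%, and the amino acid response element TGATGNAA in 0 of 34, against 4.46%. A gene counted if any of its windows matched. By window, the E-box was in 6 of 53 (11.3%), against 7.26% of all 35116 windows. The E2F motif was in 5.66% against 1.79%, the CCAAT box in 30.2% against 34.6%, and the amino acid response element in 0 against 3.62%. Of the genes with an E-box, only NME1 was called.

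PRPP is made from ribose phosphate by PRPS1 and PRPS2, and neither passed the test. PRPS1 was at 174, 159 and 162 CPM in non-treated replicates 1 to 3 and at 156, 140 and 126 CPM in 6j treated replicates 1 to 3. The groups did not overlap, though the nearest libraries were close. The log2 fold change was −0.23 ± 0.09 (SE) with an adjusted p of 0.165, or 0.022 with the replicate block. PRPS2 had a log2 fold change of −0.16, with overlapping groups. At an unadjusted p under 0.05, edgeR put 1 of these genes lower, and DESeq2 put 0 past its adjusted threshold.

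The 6 genes of the purine ring pathway all had log2 fold changes below 0 (median −0.22), and 2 fell. Over all rows, 49.3% were below 0 and 4.37% fell. At an unadjusted p under 0.05, edgeR put 3 of the 6 lower, against 13.0% of all rows. DESeq2 put 3 lower, against 8.04% of the rows it gave an adjusted p. PFAS, which carries out the fourth step by adding an amide nitrogen, was at 213, 183 and 183 CPM in non-treated cells and at 138, 116 and 110 CPM in 6j treated cells. Every 6j treated library lay well under the lowest non-treated one. PFAS fell with a log2 fold change of −0.67 ± 0.11 (SE) and an adjusted p of 0.0108. The adjusted p was 0.0576 without non-treated replicate 1 and 0.0645 without 6j treated replicate 2. PFAS lies on chromosome 17 (8247618 to 8270491, GRCh38) and shares no exon with a neighbour.

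ADSL, which removes fumarate both here and on the way from IMP to AMP, was at 85.7, 76.2 and 75.5 CPM in non-treated cells and at 65.0, 59.1 and 58.2 CPM in 6j treated cells. The groups were apart, and the log2 fold change was −0.38 ± 0.09 (SE, adjusted p 0.0298). The adjusted p rose above the threshold in 5 of the 6 fits that left out 1 library, reaching 0.141 without non-treated replicate 1. The exception was the fit without 6j treated replicate 1. ADSL shares 1344 exon bases with AL022238.4 on the same strand, so its reads may be split. ATIC, which closes the ring, had a log2 fold change of −0.31 (adjusted p 0.0569, or 0.00527 with the block). PPAT, which commits PRPP to the pathway, was at −0.10, and GART and PAICS, which carry several middle steps, were both at −0.14, with overlapping groups in all 3. The neighbours PPAT and PAICS thus had small values next to that of PFAS, a difference between genes that was not tested.

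Among the 4 genes that turn IMP into AMP or GMP, 0 passed edgeR's test, with 1 higher and 2 lower at an unadjusted p under 0.05 and 1 lower by DESeq2. IMPDH2, the more abundant of the dehydrogenases that open the guanine branch, was at 240, 195 and 256 CPM in non-treated cells and at 178, 132 and 179 CPM in 6j treated cells. In both groups replicate 2 was the lowest, and the groups did not overlap. The log2 fold change was −0.50 ± 0.14 (SE), and the adjusted p was 0.0619, 0.000169 with the replicate block and 0.0064 by DESeq2. IMPDH1 was at −0.26 (adjusted p 0.145, or 0.0245 with the block), and GMPS, which adds the amino group of GMP, was at −0.04. ADSS, which opens the adenine branch, was at 122, 117 and 120 CPM in non-treated cells and at 138, 147 and 132 CPM after 6j. The log2 fold change was 0.22 ± 0.08 (SE), with an adjusted p of 0.112, or 0.0327 with the block.

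Purine salvage was represented by APRT, HPRT1 and ADK. APRT, which joins adenine to PRPP, was at 47.3, 39.9 and 49.1 CPM in non-treated cells and at 33.4, 27.3 and 24.1 CPM in 6j treated cells. The highest 6j treated library was below the lowest non-treated one. It fell with a log2 fold change of −0.69 ± 0.14 (SE, adjusted p 0.019), the most negative of the 36. The adjusted p was 0.0881 without non-treated replicate 1, 0.0611 without non-treated replicate 3 and 0.1 without 6j treated replicate 2, and without 6j treated replicate 3 the log2 fold change was −0.58, just under the fold threshold. APRT lies on chromosome 16 (88809339 to 88811944) and shares no exon with a neighbour. HPRT1, which salvages hypoxanthine and guanine, was at −0.26 with groups that did not overlap (adjusted p 0.116, or 0.011 with the block), and ADK, which phosphorylates adenosine, was at −0.04.

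None of the 5 genes of the pyrimidine pathway and CTP synthesis passed edgeR's test, with 1 lower at an unadjusted p under 0.05 and 1 lower by DESeq2, and their median was −0.18. DHODH, the mitochondrial enzyme that oxidises dihydroorotate, was at 21.0, 16.2 and 16.8 CPM in non-treated cells and at 13.3, 12.9 and 12.9 CPM in 6j treated cells. The groups were apart, and the SD of the 6j treated libraries was 0.253 CPM. Its log2 fold change was −0.47 ± 0.13 (SE), and the adjusted p was 0.0579, 0.0102 with the block and 0.0247 by DESeq2. CAD, which carries the opening steps of the ring, was at 295 ± 28.2 CPM in non-treated and 250 ± 34.3 CPM in 6j treated cells (n = 3 each), with overlapping groups and a log2 fold change of −0.23 (adjusted p 0.234, or 0.0131 with the block). UMPS, which makes UMP, was at −0.17, and the CTP synthases CTPS1 and CTPS2 were at −0.18 and −0.08.

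Of the genes that handle uridine and cytidine, UPP1 was the only one of the 36 to rise. It was at 18.8, 21.2 and 17.6 CPM in non-treated cells and at 37.6, 51.7 and 57.1 CPM in 6j treated cells. The lowest 6j treated library was thus well above the highest non-treated one, and the 6j treated libraries were spread more widely (19.2 ± 1.84 against 48.8 ± 10.0 CPM, SD, n = 3). The log2 fold change was 1.35 ± 0.16 (SE) with an adjusted p of 0.0036, and it was no lower than 1.22 in 11 alternatives, with adjusted p up to 0.0324. A formal test against a 1.5-fold change (glmTreat in edgeR) called 0 of the 36 in either direction, with 1 higher and 0 lower at an unadjusted p under 0.05. UPP1 lies on chromosome 7 (48088628 to 48108733) and shares no exon with a neighbour.

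The kinases UCK1 and UCK2 act on the same nucleosides in the opposite sense, adding a phosphate to uridine and cytidine. UCK2 was at 150 ± 9.34 CPM in non-treated and 125 ± 5.94 CPM in 6j treated cells (log2 fold change −0.26, adjusted p 0.0795, or 0.012 with the block). UCK1 was at 43.6 ± 1.26 and 47.5 ± 3.47 CPM (log2 fold change 0.12, adjusted p 0.433).

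Among the 5 kinases that phosphorylate nucleotides, 2 fell, against 4.37% of all rows, and the median was −0.30. At an unadjusted p under 0.05, edgeR put 4 of the 5 lower, against 13.0% of all rows. DESeq2 put 3 lower, against 8.04% of the rows it gave an adjusted p. NME1, which makes triphosphates from diphosphates, was at 150, 134 and 156 CPM in non-treated cells and at 109, 96.5 and 69.1 CPM in 6j treated cells. The groups were apart, and 6j treated replicate 3 was the lowest. NME1 fell with a log2 fold change of −0.68 ± 0.16 (SE) and an adjusted p of 0.033. The call was lost with the replicate block (adjusted p 0.0635), without any of non-treated replicates 1, 2 and 3 (0.121, 0.0623 and 0.0981) and without 6j treated replicate 2 (0.116). It was also lost without 6j treated replicate 3, where the log2 fold change of −0.51 was under the fold threshold.

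NME1 (chromosome 17, 51153536 to 51162428) and NME2 share exons with the read-through gene NME1-NME2, so their reads may be split. NME1-NME2 itself was at 55.1, 83.3 and 44.8 CPM in non-treated cells and at 20.4, 10.2 and 47.9 CPM in 6j treated cells, with overlapping groups (adjusted p 0.331). NME2 was at −0.30 with groups that did not overlap (adjusted p 0.0953, or 0.00346 with the block). Summed into 1 row, the NME genes were at 560, 536 and 598 CPM in non-treated cells and at 430, 375 and 417 CPM in 6j treated cells. That sum fell with a log2 fold change of −0.47 ± 0.09 (SE, adjusted p 0.0159). It does not depend on how reads were divided among these rows. It would depend on shared reads that were dropped or counted more than once, and the counting rule is not given.

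DTYMK, which phosphorylates dTMP, was at 44.6, 41.6 and 46.1 CPM in non-treated cells and at 36.2, 34.4 and 31.3 CPM in 6j treated cells. The groups were apart. It fell with a log2 fold change of −0.38 ± 0.09 (SE, adjusted p 0.0398), but the adjusted p was above the threshold in 5 of the 6 fits that left out 1 library (up to 0.143 without non-treated replicate 1) and 0.0555 when libraries were scaled by size alone. The exception was the fit without 6j treated replicate 1. GUK1, which phosphorylates GMP, was at −0.30 (adjusted p 0.128, or 0.0105 with the block), and CMPK1, which phosphorylates UMP and CMP, was at 0.11 with overlapping groups.

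**Figure D2:**
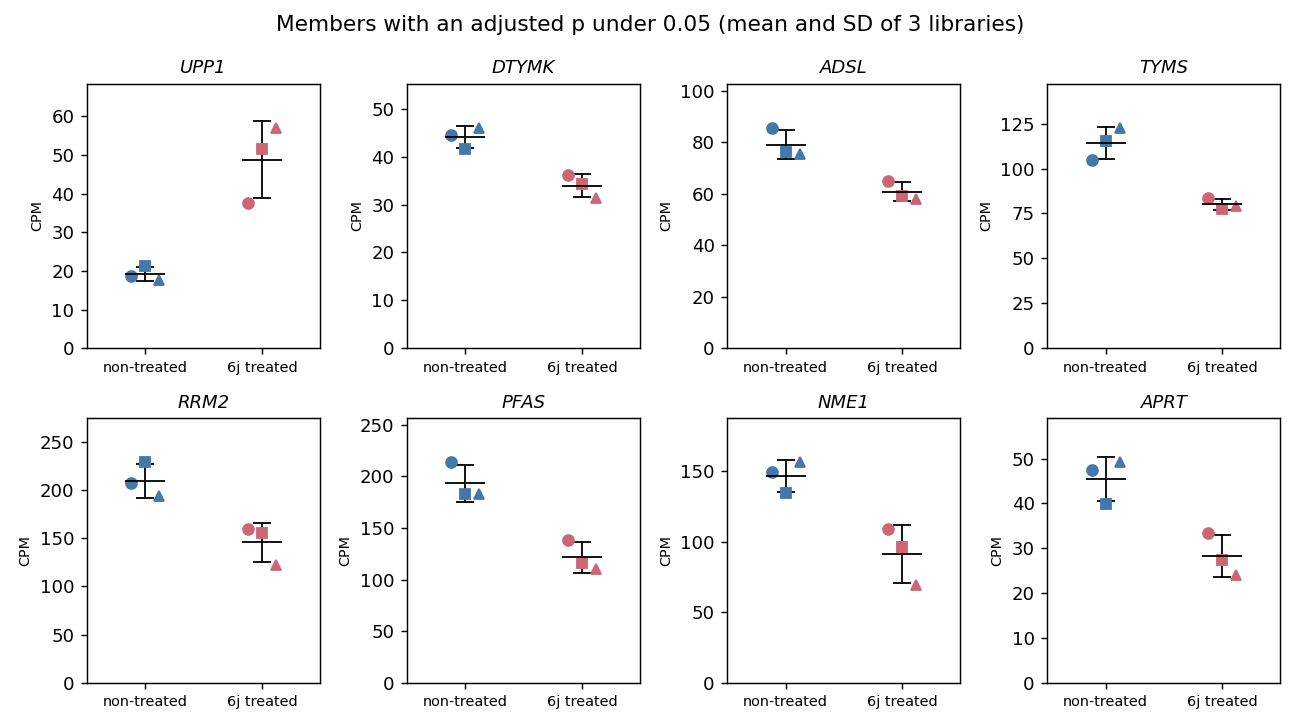
CPM in each library is plotted for the 8 genes with an adjusted p under 0.05, with circles, squares and triangles for replicates 1, 2 and 3 and bars for the mean and SD of 3 libraries. In each panel the 6j treated libraries lie entirely above (UPP1) or entirely below (the other genes) the non-treated ones.

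Deoxynucleotide supply had a group median of −0.51, and 2 of its 5 genes fell, against 4.37% of all rows. At an unadjusted p under 0.05, edgeR put 3 lower, against 13.0% of all rows. DESeq2 put 2 lower, against 8.04% of the rows it gave an adjusted p. The 5 include SAMHD1, which breaks these products down, at −0.52 ± 0.58 (SE, adjusted p 0.642), while RRM1 and DUT were at −0.21 and −0.22. The median was −0.23 without non-treated replicate 2 and without 6j treated replicate 3. TYMS, which makes dTMP from dUMP, was at 105, 115 and 123 CPM in non-treated cells and at 83.3, 77.6 and 79.2 CPM in 6j treated cells. The 6j treated libraries were close together and all lower. TYMS fell with a log2 fold change of −0.51 ± 0.08 (SE) and an adjusted p of 0.0112, and 0.0645 without 6j treated replicate 2. RRM2, the small subunit of ribonucleotide reductase, whose level is known to follow S phase, was at 207, 228 and 193 CPM in non-treated cells and at 159, 155 and 122 CPM in 6j treated cells. The groups did not overlap, and the log2 fold change was −0.53 ± 0.11 (SE, adjusted p 0.0247). The adjusted p was 0.0987 without non-treated replicate 1, 0.0793 without non-treated replicate 2 and 0.0875 without 6j treated replicate 2. TYMS, with an exon length of 2470 bases, overlaps TYMSOS and ENOSF1 on the other strand by 1150 exon bases in total. RRM2 shares 1077 exon bases with AC007240.1 on its own strand. Whether counting used the strand is not given in the sources used here.

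RRM1, the large subunit of the same reductase, was at 1242, 1229 and 1336 CPM in non-treated cells and at 1106, 1052 and 1136 CPM in 6j treated cells. The groups were apart, with a log2 fold change of −0.21 ± 0.09 (SE, adjusted p 0.163, or 0.0104 with the block). DUT, which removes dUTP, was at −0.22 (adjusted p 0.292). SAMHD1, which breaks deoxynucleoside triphosphates down, was at 55.5, 108 and 41.0 CPM in non-treated cells and at 45.5, 72.6 and 24.1 CPM in 6j treated cells. Replicate 2 was the highest and replicate 3 the lowest in both groups, which overlapped. Its log2 fold change was −0.52 ± 0.58 (SE, adjusted p 0.642), and −0.54 ± 0.09 with the block (adjusted p 0.00152). SAMHD1 overlaps TLDC2 on the other strand. The kinases that salvage deoxynucleosides are TK1, TK2 and DCK. DCK, which phosphorylates deoxycytidine, was at 33.4, 35.1 and 39.1 CPM in non-treated cells and at 30.9, 29.4 and 30.0 CPM in 6j treated cells, which did not overlap (log2 fold change −0.25 ± 0.10, SE, adjusted p 0.134). TK1 and TK2 were at −0.14 and −0.01, and 0 of the 3 passed edgeR's test, with 1 lower at an unadjusted p under 0.05 and 0 by DESeq2.

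Markers of dividing cells were read beside these genes, since the level of RRM2 is known to follow S phase. Of 20 genes of S phase and replication, 17 had values below 0 and 2 fell, UHRF1 (log2 fold change −0.40, adjusted p 0.0233) and FEN1 (−0.29, adjusted p 0.0498), with a median of −0.12. With the replicate block, 1 of the 20 rose and 5 fell. With 1 library left out, edgeR put 2 lower without 6j treated replicate 1 and 0 lower in each of the other 5 fits, beside 4 lower at an unadjusted p under 0.05 and 2 lower by DESeq2 on all libraries. Their summed level was 3371 to 3533 CPM in non-treated and 2876 to 3461 CPM in 6j treated cells, which overlapped. All 10 mitosis genes had values below 0 and 4 fell, CCNB1 (−0.50, adjusted p 0.00957), CDK1 (−0.46, adjusted p 0.0142), CCNA2 (−0.36, adjusted p 0.0254) and PLK1 (−0.44, adjusted p 0.0369), or 9 with the block. With 1 library left out, 0 to 6 fell, with 0 without non-treated replicate 1 or 6j treated replicate 2, 1 without non-treated replicate 2 and 2 without non-treated replicate 3, beside 8 lower at an unadjusted p under 0.05 and 7 lower by DESeq2 on all libraries. Their summed level was 2771 to 2855 CPM and 2223 to 2443 CPM, which did not overlap. The part of these differences in the values of the nucleotide enzymes was not tested. Over all rows, 49.3% had values below 0 and 4.37% fell, while with the block 13.1% rose and 13.9% fell. At an unadjusted p under 0.05, 13.0% of all rows were lower, and DESeq2 put 8.04% lower.

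Levels can be compared between genes per kilobase of exon. In non-treated cells RRM1 was the highest at 304 ± 14.0 CPM per kilobase, followed by NME2 at 135, IMPDH2 at 83.0, TK1 at 63.1 and PRPS1 at 62.9. DHODH was the lowest at 2.60 CPM per kilobase, next to UPP1 at 4.19 and TK2 at 4.28. In 9 of the 35 pairs of neighbours in this order the libraries did not overlap, so most neighbours did not differ beyond their spread. UPP1, the only gene that rose, was thus among the lowest at the start, and it reached 10.7 CPM per kilobase in 6j treated cells, still below most of the others.

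**Figure D3:**
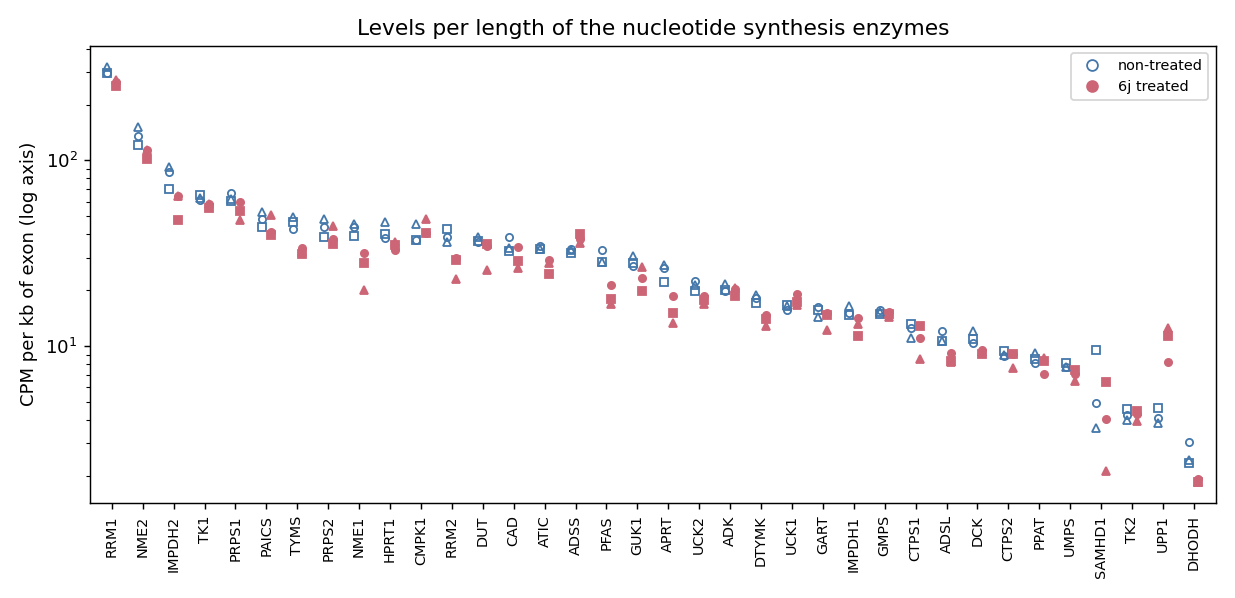
CPM per kilobase of exon is plotted on a log axis for the 36 genes in non-treated and 6j treated cells, in order of the non-treated level, with each point 1 library (circles, squares and triangles for replicates 1, 2 and 3). RRM1 is highest in both groups, and the mean of UPP1 moves up from 4.19 to 10.7.

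Several steps have 2 enzymes or subunits, and the ratio within each of 7 such pairs was compared between groups with a two-sided exact permutation test over the 6 libraries, which cannot go below 0.1 with 3 against 3. The log2 ratio of UCK1 to UCK2 was −1.91, −1.65 and −1.77 in non-treated cells and −1.35, −1.44 and −1.41 in 6j treated cells, without overlap. It differed by 0.38 (exact p = 0.1, 0.35 adjusted over the 7 pairs). The log2 ratio of NME1 to NME2 was −1.28 ± 0.06 and −1.68 ± 0.38, a difference of −0.41 that was also without overlap (exact p = 0.1, adjusted 0.35). It was −0.19 without 6j treated replicate 3, and the shared read-through gene bears on both. For RRM1 to RRM2 the ratio differed by 0.32 and for IMPDH1 to IMPDH2 by 0.24 (exact p = 0.2 each). CTPS1 to CTPS2 differed by −0.11 and TK1 to TK2 by −0.13 (exact p = 0.3 each), and PRPS1 to PRPS2 by −0.08 (exact p = 0.8). No pair could pass the threshold by this permutation test. A sign-flip test on the ratios, with libraries of equal replicate number paired, gave p from 0.25 to 0.75. It cannot go below 0.25 with 3 such pairs of libraries.

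**Figure D4:**
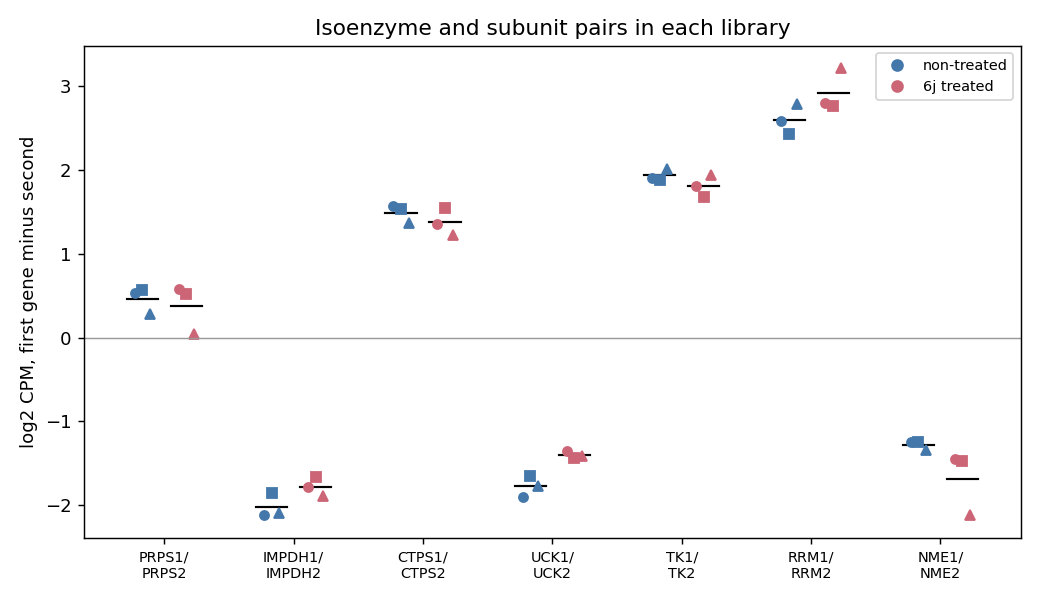
The log2 ratio of CPM of the first to the second gene is plotted for each of the 7 pairs in each library, with circles, squares and triangles for replicates 1, 2 and 3 and bars for the means. The groups separate for UCK1 to UCK2 and for NME1 to NME2 and overlap for the other pairs.

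Genes that feed or surround these pathways were counted in the same fit. Serine and folate enzymes supply the carbon units of the purine ring and of dTMP, and 15 of 17 were tested. Of these 6 were called higher and 0 lower, with 2 lower at an unadjusted p under 0.05 in edgeR and 1 lower by DESeq2. Over all rows, 2.48% were called higher and 1.12% lower, with 13.0% lower at that unadjusted p and 8.04% lower by DESeq2. PHGDH and PSAT1, which open serine synthesis, had log2 fold changes of 1.36 (adjusted p 0.000839) and 1.19 (adjusted p 0.00129), and PSPH, which completes it, 1.08 (adjusted p 0.00559). SHMT2 and MTHFD2, which pass the carbon unit on in mitochondria, were at 1.04 (adjusted p 0.000575) and 0.67 (adjusted p 0.0036). The list's summed level was 1435 to 1487 CPM in non-treated and 2305 to 2519 CPM in 6j treated cells. The median of the list was 0.12.

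Of 61 other nucleotide metabolism genes 50 were tested, with a median of −0.02, and 4 fell while 1 rose. ADA, which deaminates adenosine, and DPYD, which degrades uracil and thymine, were called lower (log2 fold changes −0.77 and −0.59, adjusted p 0.0379 and 0.0231). ITPA, which clears inosine triphosphate, and NT5C, a nucleotidase, fell by 0.47 and 0.43 on the log2 scale (adjusted p 0.0287 and 0.0432). The nucleoside transporter SLC29A2 rose by 0.42 (adjusted p 0.0401). With the replicate block, 7 of the 50 rose and 14 fell. With 1 library left out, 0 to 4 fell and 0 to 2 rose in edgeR. None fell without non-treated replicate 1, non-treated replicate 2 or 6j treated replicate 2, and 1 fell without either replicate 3. None rose without any 1 of the non-treated libraries or 6j treated replicate 2. On all libraries, 7 were higher and 12 lower at an unadjusted p under 0.05, and 3 were higher and 7 lower by DESeq2. Of the 8 pentose phosphate genes, which supply ribose phosphate, 0 passed edgeR's test, with 1 higher and 2 lower at an unadjusted p under 0.05, and 1 higher and 1 lower by DESeq2, and with the block 2 rose and 2 fell. For comparison, 4.79% of all rows rose and 4.37% fell in edgeR, and 13.1% and 13.9% with the block. At an unadjusted p under 0.05, 13.1% of all rows were higher and 13.0% lower, and DESeq2 put 8.25% higher and 8.04% lower.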

How the data were processed

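Polyadenylated RNA of 3 libraries of 6j treated and 3 of non-treated MHCC-97H cells was sequenced, and the authors deposited raw integer counts for each gene, with replicates kept apart. The submitters' processing notes name HISAT2, StringTie and GRCh38. The counting program, its use of strand and the annotation are not given in the sources used here. The integers may be reads or rounded estimates.

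The 36 genes and the comparison lists were chosen with earlier results of these data known. All 36 were named, with values in every library for those with an adjusted p under 0.05 and for the largest change of each pathway group. From the comparison lists, at most 8 genes with an adjusted p under 0.05 were named, and some genes of these lists are not reported here.

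Counts were filtered by filterByExpr (about 10 counts in enough libraries, total of at least 15), scaled by TMM and fitted by edgeR 4.0.16 (R 4.3.3, limma 3.58.1) with robust quasi-likelihood models without covariates, and p-values were adjusted by the Benjamini-Hochberg method over all 15957 rows tested. The methods of the study name DESeq2, and DESeq2 1.42.0 was an alternative here. CPM used TMM-scaled library sizes, log2 CPM a prior count of 2, and standard errors came from the F statistic. Medians of lists were not tested. Coordinates and exon lengths are those of GENCODE version 29 (GRCh38), and promoter windows those of RefSeq. The procedure was tested on simulated data. Precision depended on the spread between the 3 libraries of a group as well as on the 31533403 to 38018349 counts of a library. The limit at a count of 0 covers counting error only.

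The labels give both groups replicate numbers 1 to 3. Deviations from the group means over 15957 rows correlated at 0.171, 0.18 and 0.312 for equal numbers and at −0.231 to 0.0795 for unequal ones, so the numbers were taken to pair the libraries, a pairing that comes from the data and not from the labels. Alternatives were other scaling, no filter, DESeq2, the replicate block, a formal test of a 1.5-fold change and leaving out each library. The summed NME row and the counts within pairs were added after the data had been seen.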

Additional observations from a re-analysis of the deposited data

How the results depend on the processing

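The directions of the 36 genes were the same under other scaling, without the filter, by DESeq2, with the replicate block and with each library left out, except for 3 whose values were near 0. With 1 library left out, the log2 fold change of ADK ranged from −0.066 to 0.0011 (positive without 6j treated replicate 2), that of CTPS2 from −0.12 to 0.0035 (positive without 6j treated replicate 3) and that of TK2 from −0.061 to 0.039 (positive without non-treated replicate 2, and 0.036 without 6j treated replicate 3). TK2 was at 0.0044 with scaling by library size. The difference between groups in the PRPS1 to PRPS2 log2 ratio ranged from −0.17 to 0.093 with 1 library left out. That difference turned positive without 6j treated replicate 3. The cause was not tested.

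The number of genes passing moved more. With 1 library left out, 0 to 4 of the 36 were called lower, 0 to 8 fell at any fold, and 135 to 482 of all rows were called higher and 51 to 290 lower, with fewer libraries in each fit. In all of these fits 1 of the 36 was called higher. The formal test of a 1.5-fold change (glmTreat in edgeR) called 0 higher and 0 lower, with 1 higher and 0 lower at an unadjusted p under 0.05. DESeq2 put 12 of the 36 lower at any fold, against 8.04% of the rows it gave an adjusted p. The replicate block put 2 higher and 18 lower at any fold, against 13.1% and 13.9% of all rows. With the fold limit it called 640 of all rows higher and 393 lower. Beyond the changes given beside the genes, the block changed no other call among the 36.

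Group medians, with 1 library left out, ranged from −0.20 to −0.11 for the AMP and GMP branches, from −0.31 to −0.18 for purine salvage and from −0.53 to −0.23 for deoxynucleotide supply. With 3 libraries per group, the permutation test of the isoenzyme ratios cannot go below 0.1. Pseudogenes named after PAICS, IMPDH1, DUT, HPRT1, RRM2, PRPS1, PPAT, TYMS, GMPS, NME1 and NME2 are annotated in the genome. None of these pseudogenes has a row in the count table. How reads shared with them were counted is not given in the sources used here.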
